A study of Mus musculus with 6 samples.

Results

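Genes of the Notch pathway and of the basic helix-loop-helix (bHLH) repressors, 10 in all, were looked up by name in RNA-seq data of mouse embryonic stem (ES) cells: the ligands Dll1, Dll3, Jag1 and Jag2, the receptor Notch1, and the repressors Hes1, Hes6, Hey1, Bhlhe40 and Bhlhe41. Of the 10, 9 had a value in every sample, among 12626 genes in all. Dll3 was not analysed here. The set was chosen by the measured log2 values of these same samples, in which Dll1 and Bhlhe41 were higher at D13 than at D6. The D6 to D13 values are therefore described without a test for all 9 genes, and Dll1 and Bhlhe41 carry no test in any comparison.

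The cells were wild-type J1 ES cells, a single line kept on gelatin without feeders and with leukemia inhibitory factor (LIF) throughout. At D0 they were in serum, that is Glasgow medium with fetal bovine serum. At D6 and D13 they had spent 6 and 13 days in 2i+vitC, a serum-free neurobasal and DMEM/F12 medium with Neuro2 and B27 supplements, the Gsk3 inhibitor CT-99021, the MEK inhibitor PD0325901 and vitamin C. The study used this conversion to follow cells as they lost DNA methylation. Each day had 2 biological replicates, 6 samples in all. D0 differs from the later days in medium, inhibitors, vitamin C and time in culture, and these cannot be told apart.

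Notch is a receptor that is cut when a ligand on a neighbouring cell, of the Delta-like (Dll) or Jagged (Jag) family, binds it. The freed intracellular part enters the nucleus, joins the DNA-binding protein RBPJ and a Mastermind protein, and switches on targets such as the Hes and Hey genes. Hes and Hey proteins are bHLH repressors that hold down genes of differentiation. Bhlhe40 and Bhlhe41, also known as Dec1 and Dec2, are related repressors that bind E-box sequences and act in the circadian clock. In ES cells the pathway is known for its part in the exit towards neural fates.

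Values are log2 CPM (reads scaled to a common library size), so a difference of 1 is a doubling. Each sample had 73230745 to 83688345 reads on genes, and 3 reads corresponded to 0.0344 to 0.042 CPM. Read numbers were obtained by undoing the log2 scale. A change was said to pass the test when the limma adjusted p was under 0.05. It was said to be called when it was also more than 4-fold, the study's limit for genes. These are bulk samples, so fewer expressing cells and less RNA per cell cannot be told apart.

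The promoters of Dll1 and Bhlhe41 are shown because these genes had the widest swing between days of the 9. The sequences are from RefSeq, read 5′ to 3′ on the strand of the gene in GRCm38.p6, and stop before the outermost annotated start. Capitals mark the E-box CACGTG, the sequence that Bhlhe40 and Bhlhe41 proteins are known to bind. The Dll1 stretch is chr17:15376933-15377182 and the Bhlhe41 stretch is chr6:145865559-145865670, both on the minus strand.
Dll1: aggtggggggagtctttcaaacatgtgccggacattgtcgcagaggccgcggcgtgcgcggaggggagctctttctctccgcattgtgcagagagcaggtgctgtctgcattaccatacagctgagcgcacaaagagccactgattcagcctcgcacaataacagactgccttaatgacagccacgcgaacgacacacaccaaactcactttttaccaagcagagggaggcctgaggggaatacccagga
Bhlhe41: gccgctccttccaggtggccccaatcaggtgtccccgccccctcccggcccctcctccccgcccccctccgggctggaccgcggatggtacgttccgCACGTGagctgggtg

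The Bhlhe41 E-box lies 153 bases upstream of the RefSeq start of the gene. The GENCODE start, at 145865558, lies directly after the shown stretch and is closer to the E-box. RefSeq promoters, 250 bases before to 50 bases after a start, were available for 7 of the 10 genes, 9 promoters in all because Dll1 and Hes6 have a second start. Hes1, Hey1 and Bhlhe40 had no promoter available and were not searched, so the counts below say nothing of them. Both strands were searched for CACGTG, for TGGGAA, the core that RBPJ binds, and for CACNAG, the N-box bound by Hes proteins. CACGTG was found in the Bhlhe41 promoter and in none of the other 8, while 7.15% of 32851 mouse promoters hold it. TGGGAA was in 0 of the 9 windows, against 25.6% of all promoters. CACNAG was in 3 of the 9 windows, those of Notch1, the inner start of Hes6 and the upstream start of Dll1, against 42.5% of all promoters. In Notch1 it matched 3 times, at 108, 3 and 1 bases upstream, and the last 2 matches overlap on opposite strands. These matches describe the letters in the windows and nothing of what binds there.

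Among the ligands, Dll1 (Delta-like 1; chromosome 17, 15367354 to 15376872, minus strand, GRCm38) was lowest at D6. The D0 samples had 2.80 and 2.78 log2 CPM, the D6 samples -0.29 and -1.68, and the D13 samples 3.07 and 4.11. In reads this was 548 and 600 in serum, 64 and 26 after 6 days, and 601 and 1296 after 13 days. Both D6 samples lay below every other sample, and both D13 samples above both D0 samples. The mean log2 CPM at D6 differed from D0 by -3.78 (SE 0.53), and D13 differed from D6 by 4.58 (SE 0.53), 23.9-fold. The D6 replicates were the most scattered, with an SD of 0.99 against 0.012 at D0. Counted from the highest D6 to D13 difference downwards, with falls at the other end, Dll1 stood at place 4 of 12626 genes, in the contrast it was picked for. Its D13 mean exceeded its D0 mean by 0.80, and this difference became 0.28 without D13 replicate 2 and 1.32 without D13 replicate 1. Dll1 overlaps the long noncoding RNA gene A930024N18Rik on the other strand, and whether reads were counted by strand is not given in the sources used here.

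**Figure D1:**
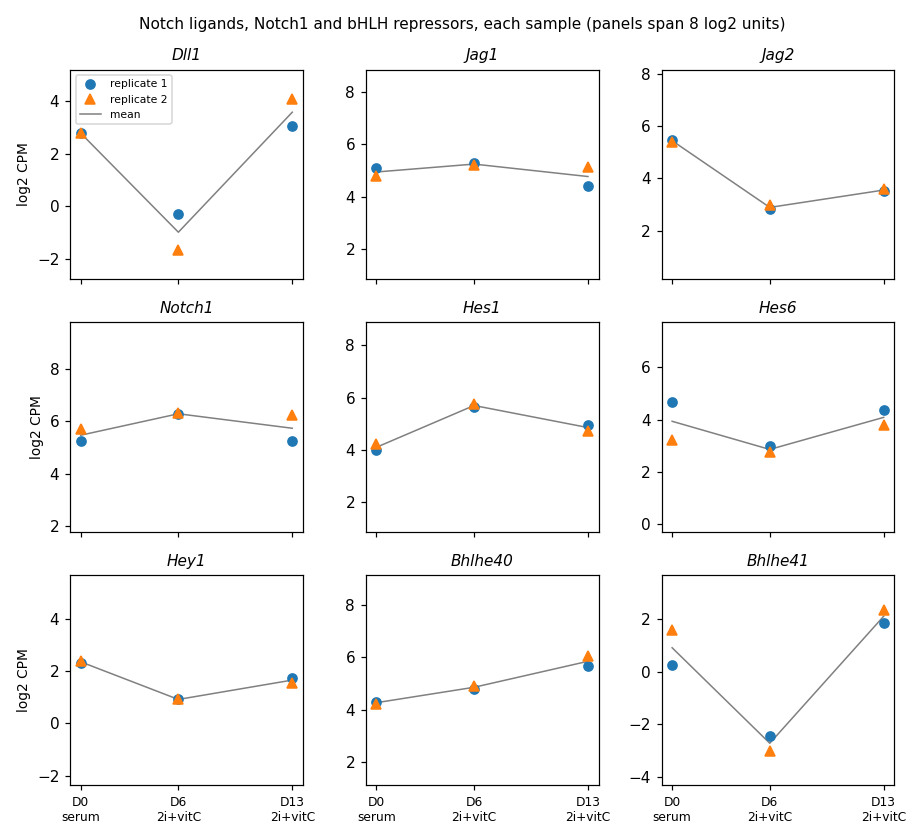
Log2 CPM of each of the 9 genes (y axis, 8 log2 units in every panel) on D0, D6 and D13 (x axis, days). Circles are replicate 1, triangles replicate 2 and the line joins the means. Dll1 and Bhlhe41 lie over 3 log2 units lower at D6 than at D0 and are back up at D13, Jag2 drops from about 5.4 to 2.9 and recovers little, Hes1 peaks at D6 and Bhlhe40 climbs at each step.

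Jag2 (Jagged 2; chromosome 12, 112907819 to 112929776, minus strand) fell from D0 to D6 and stayed low at D13. In serum it stood at 5.48 and 5.40 log2 CPM, on D6 at 2.82 and 2.97, and on D13 at 3.54 and 3.58. The replicates of each day lay close together, and no sample of one day overlapped another day. The fall from D0 to D6 was -2.55 (SE 0.24, limma adjusted p = 0.00017), 5.84-fold, and that from D0 to D13 was -1.88 (SE 0.24, limma adjusted p = 0.00049), 3.69-fold. Jag2 thus passed the 4-fold limit at D6 and not at D13. Between D6 and D13 it differed by 0.66, far less than Dll1.

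Jag1 (Jagged 1; chromosome 2, 137081456 to 137116644, minus strand), the third measured ligand, had no difference that passed the test. The replicates gave 5.10 and 4.78 log2 CPM on D0, 5.27 and 5.21 on D6, and 4.41 and 5.12 on D13. The D13 replicates spanned more than the distance between the day means. The difference was 0.30 (SE 0.28, limma adjusted p = 0.50) at D6 and -0.17 (SE 0.28, limma adjusted p = 0.65) at D13, both relative to D0. The ligands thus had separate courses, with Dll1 low at D6 alone, Jag2 low at D6 and D13, and Jag1 without a difference that passed.

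The receptor Notch1 (chromosome 2, 26457903 to 26516663, minus strand) was expressed on every day. Its D0 samples had 5.24 and 5.69 log2 CPM, its D6 samples 6.26 and 6.30, and its D13 samples 5.23 and 6.23. Both D6 samples were above both D0 samples, whereas the D13 replicates lay 1 log2 unit apart, across the D0 range. The D0 to D6 difference of 0.82 (SE 0.33) did not pass the test (limma adjusted p = 0.11). It passed when D13 replicate 1 or D13 replicate 2 was left out (limma adjusted p = 0.030 each), or when the 2 days were fitted alone (adjusted p = 0.030), since the D13 replicates enter the shared spread. From D0 to D13 the difference was 0.27 (SE 0.33, limma adjusted p = 0.55). The noncoding transcripts 0610009E02Rik and Gm13568 overlap Notch1 on the other strand.

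Among the Hes and Hey repressors, Hes1 (chromosome 16, 30064384 to 30067796, plus strand), the classic Notch target, was highest when Dll1 and Jag2 were lowest. It measured 3.99 and 4.22 log2 CPM in serum, 5.65 and 5.74 on D6, and 4.97 and 4.74 on D13. The 3 days did not overlap. Hes1 rose by 1.59 (SE 0.23, limma adjusted p = 0.0013) from D0 to D6, 3.02-fold, and D13 differed from D6 by -0.84. From D0 to D13 it rose by 0.75 (SE 0.23, limma adjusted p = 0.029). That second rise did not pass in part of the alternatives, where the limma adjusted p was 0.088 without D0 replicate 1, 0.093 without D6 replicate 1, 0.094 without D6 replicate 2, 0.082 without D13 replicate 1 and 0.10 in a fit of D0 and D13 alone.

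Hey1 (Hes-related with YRPW motif 1; chromosome 3, 8663359 to 8667256, minus strand), another Notch target, moved the other way. On D0 the samples had 2.31 and 2.38 log2 CPM, on D6 0.91 and 0.92, and on D13 1.75 and 1.55. The days did not overlap, and D13 lay between the others. Hey1 fell by 1.43 from D0 to D6 (SE 0.33, limma adjusted p = 0.014), although the adjusted p was 0.13 without D6 replicate 1 and 0.12 without D6 replicate 2. Its D0 to D13 difference of -0.70 (SE 0.33) did not pass the test (limma adjusted p = 0.12). Hes1 and Hey1, both direct targets of the same receptor, thus passed the D0 to D6 test in opposite directions.

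Hes6 (chromosome 1, 91411483 to 91414038, minus strand), a family member known to antagonise Hes1, had the widest replicate spread of the 9 genes, an SD of 1.03 at D0. Its samples gave 4.66 and 3.21 log2 CPM on D0, 2.97 and 2.75 on D6, and 4.36 and 3.80 on D13. Both D6 samples were below all others, but D0 replicate 2 lay nearer to D6 than to D0 replicate 1. The D0 to D6 difference was -1.07 (SE 0.45, limma adjusted p = 0.13), and it was -1.80 (limma adjusted p = 0.011) without D0 replicate 2 and -0.35 (limma adjusted p = 0.52) without D0 replicate 1. From D0 to D13 it was 0.15 (SE 0.45, limma adjusted p = 0.81). The same D0 replicates also differed in the summed CPM of neural markers, 245 in replicate 1 and 184 in replicate 2, and of fibroblast markers, 29.7 and 10.1. Trophoblast (204 and 178) and mesendoderm sums (8.69 and 5.25) were also higher in replicate 1. Extraembryonic endoderm (19.3 and 21.7) and ES cell marker sums (3203 and 3681) were lower there. The part of other cells in the Hes6 values was not tested.

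Bhlhe40 (chromosome 6, 108660629 to 108666925, plus strand) climbed over the course. Levels were 4.32 and 4.23 log2 CPM in serum, 4.81 and 4.91 on D6, and 5.67 and 6.03 on D13. No sample of a later day fell to the level of an earlier one. The D0 to D6 difference of 0.59 (SE 0.23) did not pass the test (limma adjusted p = 0.11). From D0 to D13 Bhlhe40 rose by 1.58 (SE 0.23, limma adjusted p = 0.00097), 2.99-fold. It overlaps the antisense gene 0610040F04Rik.

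Bhlhe41 (chromosome 6, 145858243 to 145865558, minus strand), its close relative, had the course of Dll1 instead. It measured 0.25 and 1.58 log2 CPM in serum, -2.44 and -3.02 on D6, and 1.86 and 2.37 on D13. These values correspond to 93 and 260 reads on D0, 14 and 10 on D6, and 259 and 387 on D13. In each D6 sample 1 gene of the 12626 had fewer reads than Bhlhe41, so it was at the bottom of the measured range there. The fitted difference was -3.64 (SE 0.56) from D0 to D6 and 4.84 (SE 0.56) from D6 to D13, 28.7-fold, which put it at place 2 of 12626 genes from the top, in the contrast it was picked for. At D13 it exceeded D0 by 1.20, a difference that was 0.54 without D0 replicate 1 but 1.87 when D0 replicate 2 was left out. A transcript of unsettled type, Gm43909, overlaps it on the other strand.

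Of the 7 genes that were tested, 1 rose (Hes1) and 2 fell (Jag2 and Hey1) from D0 to D6, and 1, Jag2, was called. Among all 12626 genes, 13.8% passed the test upwards and 10.4% downwards in this comparison, and 5.91% were called up and 3.9% down. From D0 to D13, 2 of the 7 rose (Hes1 and Bhlhe40) and 1 fell (Jag2). The shares over all genes were 20.9% up and 21.8% down by the adjusted p, and 7.45% called up and 6.01% called down. None of the 7 changed by more than 4-fold by D13, whatever its p. Their median log2 change was 0.30 at D6 and 0.15 at D13, beside -0.01 and -0.01 over all genes. Both comparisons rest on the same D0 samples. In the D6 to D13 step, without a test, 6 genes were higher at D13, by 4.84 for Bhlhe41, 4.58 for Dll1, 1.22 for Hes6, 0.99 for Bhlhe40, 0.74 for Hey1 and 0.66 for Jag2. Hes1, Notch1 and Jag1 differed by -0.84, -0.55 and -0.47. The last 2 rest on single D13 samples, as Notch1 differed by -0.05 without D13 replicate 1 and -1.05 without D13 replicate 2, and Jag1 by -0.12 and -0.83.

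**Figure D2:**
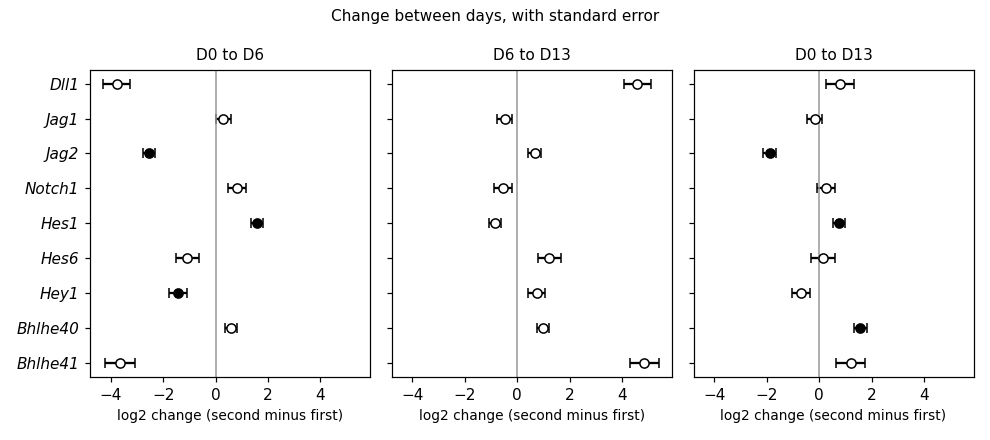
Fitted log2 change (x axis, second day minus first) of each gene (y axis) for D0 to D6, D6 to D13 and D0 to D13; points are the change and bars its standard error, from 2 samples a day. Filled points passed the test. Open points did not or were not tested, which holds for all of D6 to D13 and for Dll1 and Bhlhe41 throughout. The bars of Dll1 and Bhlhe41 at D6 to D13 are centred at 4.58 and 4.84, and those of the other 7 genes lie between -0.84 and 1.22.

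To compare levels between genes, the log2 CPM was taken per kilobase of exon. The length covered all annotated GENCODE exons of a gene, 14232 bases for Notch1, while reads were counted on RefSeq genes. The order between genes therefore also depends on the annotation. At D0 the order from high to low was Hes6, Hes1, Jag2, Jag1, Bhlhe40, Notch1, Dll1, Hey1 and Bhlhe41. Hes6, at 3.08 ± 1.03 (SD, n = 2), overlapped Hes1, at 3.08 ± 0.17, and the other neighbours did not overlap between replicates. The Hes6 replicates spanned 2.35 to 3.80, so the lower one lay below both Jag2 replicates and within the Jag1 range of 2.23 to 2.56. At D6 Hes1 stood alone at the top with 4.67 ± 0.064, followed by Jag1, Bhlhe40, Notch1, Hes6, Jag2, Hey1, Dll1 and Bhlhe41. Jag1 and Bhlhe40 overlapped there. The highest of the 3 ligands at D6 was Jag1, at 2.70 ± 0.048, above Jag2 at 0.097 ± 0.11 and Dll1 at -3.06 ± 0.99.

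At D13 Hes1, at 3.83 ± 0.16, Bhlhe40, at 3.62 ± 0.26, and Hes6, at 3.23 ± 0.40, led the order, and each overlapped its neighbour. They were followed by Jag1, Notch1, Dll1, Jag2, Hey1 and Bhlhe41, of which Jag1 overlapped Notch1 and Notch1 overlapped Dll1. Dll1, at 1.51 ± 0.73, had by then passed Jag2, at 0.76 ± 0.032, whereas at D0 Jag2, at 2.64 ± 0.054, had been well above Dll1, at 0.71 ± 0.012. Bhlhe41 was the lowest of the 9 on every day, at -1.84 ± 0.94, -5.48 ± 0.41 and -0.63 ± 0.36. Bhlhe40 was above it throughout, at 2.04 ± 0.064 on D0 and 2.63 ± 0.073 on D6.

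**Figure D3:**
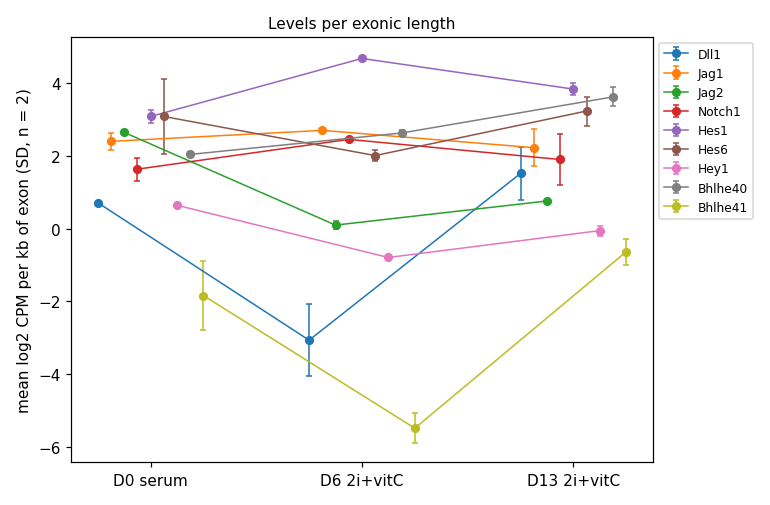
Mean log2 CPM per kilobase of exon (y axis) of the 9 genes at D0, D6 and D13 (x axis); bars are the SD of 2 replicates, and points are shifted sideways for legibility. Hes1 is at the top at D6 (4.67), Bhlhe41 is at the bottom on all 3 days, and Dll1 is above Jag2 at D13 only.

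The whole 6-sample profile of each of Dll1 and Bhlhe41 was compared with 11332 genes, as the root mean square difference of log2 CPM after subtracting each gene's own mean. The gene nearest to Dll1 was Bhlhe41, and the gene nearest to Bhlhe41 was Dll1, at 0.508 log2 units. Next to Dll1 came Fos, which encodes a subunit of the AP-1 transcription factor, at 1.01, and P2ry2, a nucleotide receptor, at 1.02. Next to Bhlhe41 came P2ry2 at 1.02 and Prss50, a serine protease gene, at 1.03. Fos had log2 CPM of 3.08 and 2.10 on D0, 0.85 and 0.34 on D6, and 3.24 and 3.17 on D13. All of these genes share the same 6 libraries, and Dll1 and Bhlhe41 were picked for the same late rise, so the likeness is a description of shape.

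The rest of the Notch pathway was followed through 60 further genes, of which 48 had values: receptors, proteases that cut Notch, enzymes that add sugars to it, trafficking proteins, nuclear partners and targets. From D0 to D6, 5 rose and 8 fell, 10.4% and 16.7% of the 48 against 13.8% and 10.4% of all genes. Of these, 6 were called (2 up and 4 down), and the median log2 change of the 48 was -0.04. From D0 to D13, 8 rose and 13 fell, 16.7% and 27.1% of the 48 against 20.9% and 21.8% of all genes. Of these, 10 were called (4 up and 6 down), and the median was -0.20. The shares called over all genes are those given above, and the median over all genes was -0.01 in both comparisons. Dner was the 1 other ligand of 4 with values, and its D0 to D13 difference of 0.96 did not pass the test (limma adjusted p = 0.13). No further Hes or Hey gene of the 7 listed had values here.

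Of the 5 sugar-adding enzymes, 2 fell at D6 and 3 at D13, in comparisons where 10.4% and 21.8% of all genes fell. Lfng and Mfng, Fringe enzymes that modify Notch and set how it responds to Delta and Jagged ligands, were both called down at D6. Lfng had log2 CPM of 3.75 and 2.90 on D0, -0.41 and -0.87 on D6, and 0.57 and 0.25 on D13, a change of -3.96 (SE 0.44, limma adjusted p = 0.00033) at D6 and -2.91 at D13. Mfng had 3.51 and 3.25 on D0, 1.03 and 1.01 on D6, and 2.14 and 1.66 on D13, a change of -2.36 (SE 0.33, limma adjusted p = 0.0012) at D6 and -1.48 at D13. The remaining Fringe, Rfng, differed by -0.14 and -0.09 and did not pass the test. Poglut1, which adds glucose to Notch, fell by 0.75 at D13 (limma adjusted p = 0.021), with an adjusted p of 0.080 without D0 replicate 2, 0.060 without D13 replicate 1 and 0.069 without either D6 replicate. The fucose-adding Pofut1 differed by 0.09 and -0.05 without passing.

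Of the 3 receptors other than Notch1, 2 fell by D13, against 21.8% of all genes. Notch4 was called down, at -2.29 (SE 0.36, limma adjusted p = 0.0014), and Notch2 fell by 1.02 (adjusted p = 0.032), while the Notch3 difference of -0.30 did not pass. The D13 replicates of Notch4 had 0.19 and 0.81 log2 CPM against a D0 mean of 2.79. Its call therefore needs D13 replicate 1, as D13 replicate 2 alone lay within 4-fold of D0. Notch2 did not pass without D0 replicate 2 (limma adjusted p = 0.17) or without D13 replicate 1 (0.16). Of 10 genes for cleavage, 1 rose at D6 and 4 at D13, against 13.8% and 20.9% of all genes. Adam10, the protease of the first cut, rose by 1.41 at D6 and 1.71 at D13, and Psenen, a γ-secretase subunit, rose by 1.33 at D13 (limma adjusted p = 0.020), with an adjusted p of 0.098 without D0 replicate 2 and 0.13 without D13 replicate 1. Aph1b and Aph1c, γ-secretase subunits that are near-identical copies and whose reads may be split uncertainly, had changes of 2.09 and 2.80 at D13.

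Of 11 trafficking genes with values, 2 fell at D6 and 3 at D13, 18.2% and 27.3% against 10.4% and 21.8% of all genes. Of 14 nuclear partners with values, 3 rose and 3 fell at D6, and 3 rose and 4 fell at D13, where 20.9% of all genes rose and 21.8% fell. Dtx4, a Deltex ubiquitin ligase, fell by 2.22 at D6, and Dtx3 had changes of -1.10 at D6 and -1.19 at D13. Without D0 replicate 2 neither Dtx3 change passed (limma adjusted p = 0.10 and 0.052), and the D6 change did not pass without D6 replicate 1 (0.14) or D6 replicate 2 (0.12). Numb, an inhibitor of Notch, fell by 0.80 at D13 (limma adjusted p = 0.029), and its adjusted p was 0.052 to 0.097 without D0 replicate 1, D0 replicate 2, D6 replicate 1, D6 replicate 2 or D13 replicate 1. Mib1, which activates ligands, differed by -0.92 at D13 without passing, with log2 CPM of 2.75 and 6.08 in its D13 replicates. Rbpj itself, the DNA-binding partner, differed by -0.26 and -0.19 and did not pass the test in either comparison (limma adjusted p = 0.51 and 0.56).

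Among the Mastermind coactivators, Maml2 rose by 2.64 at D6 (SE 0.39, limma adjusted p = 0.0015), and Maml1 fell by 2.57 at D13 (SE 0.34, limma adjusted p = 0.00058). Among corepressors Spen fell by 2.00 and Tle4 fell by 2.69 at D13, and Aes and Tle3 rose by 2.27 and 1.69. Spen and Aes were called, but neither reached 4-fold with D13 replicate 2 alone. That sample had log2 CPM of 5.77 for Spen and 7.41 for Aes, against D0 means of 7.29 and 5.61. Snw1, a cofactor of the Notch complex, fell by 0.73 at D13 (limma adjusted p = 0.021), with an adjusted p of 0.078 without D0 replicate 2 and 0.071 without either D6 replicate. Tle2 differed by 1.12 without passing. Of further targets, Cdkn1a, a cell cycle inhibitor, rose by 2.52 at D6 and 3.04 at D13, and Myc fell, with changes of -4.78 and -6.99. Nrarp, a direct target and feedback inhibitor, differed by 0.79 at D13 (limma adjusted p = 0.063), and Ccnd1 by 0.42, neither passing.

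**Figure D4:**
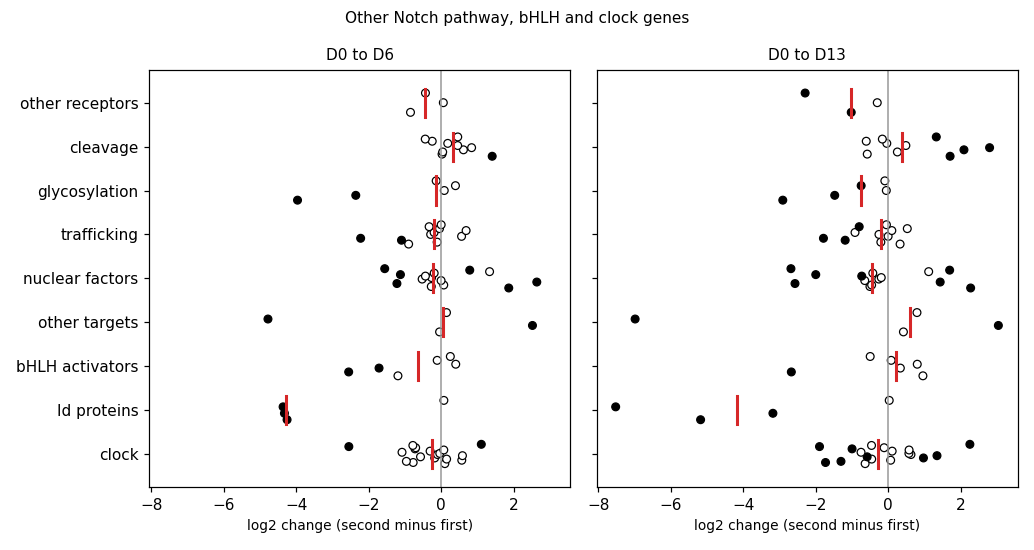
Log2 change (x axis, second day minus first) of the listed genes with values, by group (y axis), for D0 to D6 and D0 to D13. The ligand Dner and the cell type markers are not shown as groups. Filled points passed the test at a limma adjusted p under 0.05, open points did not, and the red bar is the group median. At D13 the cleavage group has 4 filled points, all to the right, and the Id proteins have 3, all to the left.

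Since Bhlhe40 and Bhlhe41 belong to the circadian clock, 22 clock genes were followed, of which 18 had values. From D0 to D6, 1 rose and 1 fell, 5.56% of the 18 in each direction against 13.8% and 10.4% of all genes. By D13, 3 rose and 5 fell, 16.7% and 27.8% of the 18 against 20.9% and 21.8% of all genes, so the clock genes stood near the background at D13. Their median log2 change was -0.24 and then -0.29. Per3, a period gene that represses the clock, was called down at D6 with -2.55 (SE 0.38, limma adjusted p = 0.0015) and was at -1.90 by D13. Tef, which encodes an output factor of the clock, rose by 1.11 at D6 (adjusted p = 0.0076; 0.11 without D6 replicate 1 and 0.050 without D6 replicate 2, where it did not pass) and was called up at D13 with 2.25 (SE 0.23, limma adjusted p = 0.00014). Arntl2, a partner of CLOCK, fell by 1.73 at D13, Csnk1e rose by 1.34 and Ciart fell by 1.31. Arntl2 did not pass without D0 replicate 1 (limma adjusted p = 0.056) or D13 replicate 1 (0.077), nor Ciart without D0 replicate 2 (0.13) or D13 replicate 1 (0.14). Clock and Arntl, the core activators, did not pass the test, with D0 to D13 differences of 0.07 and -0.64. The D0 to D13 count of 8 became 5 without D0 replicate 1 and 3 without D13 replicate 1, and the D0 to D6 count of 2 became 1 without either D6 replicate. The single D13 call became 2 without either D0 replicate and 3 without D13 replicate 2.

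All 10 ES cell markers checked had values in every sample, with a summed level of 3026 to 4029 CPM. Within that sum, 3 rose and 2 fell at D6, against 13.8% and 10.4% of all genes. At D13, 4 rose and 3 fell, against 20.9% and 21.8% of all genes. Tbx3 was called up at D6 and D13 (3.85 and 3.26). Lin28a (-3.89 and -4.91) and Utf1 (-2.10 and -2.96) were called down at both. Nanog was called up at D6 (2.005) and Dppa3 at D13 (2.94). The D6 calls of Utf1 and Nanog were close to the 4-fold limit. Utf1 in D6 replicate 2, at 5.97 log2 CPM, lay within 4-fold of its D0 mean of 7.77. The D0 replicate 2 value of Nanog, 7.76, likewise lay within 4-fold of its D6 mean of 9.66. Neural markers, 5 of 10 with values and Pax6 among those without, summed to 184 to 245 CPM at D0, 113 to 132 at D6 and 101 to 107 at D13. Trophoblast markers, 5 of 8, gave 178 to 204, 109 to 114 and 93.1 to 100 CPM, with Cdx2 and Elf5 without values. Extraembryonic endoderm markers, 4 of 8, gave 19.3 to 21.7, 3.68 to 5.59 and 5.46 to 5.79 CPM. Mesendoderm markers, 2 of 8 with T and Mixl1 without values, stayed between 4.94 and 8.69 CPM, and fibroblast markers, 3 of 8, summed to 10.1 to 29.7 CPM at D0 and to at most 5.62 later. The neural, trophoblast, endoderm and fibroblast sums were thus lower at D6 than at D0, as were Dll1, Jag2, Hey1 and Bhlhe41. At D13 these sums were still below their D0 ranges. Single markers did not all follow their sums. The neural marker Sox1 rose by 1.86 at D13 (limma adjusted p = 0.0023). The trophoblast sum fell mainly through Krt8 (-2.69 and -2.93 at D6 and D13) and Krt18 (-4.11 and -2.71), which were called down at both. The trophoblast marker Tfap2c differed by 1.02 at D6 without passing (limma adjusted p = 0.054), and Eomes and Ascl2 did not pass either. Of the endoderm markers, Dab2 was called down at D6 and D13 (-4.32 and -4.66). Pdgfra (0.52 and 0.69) and Sox17 (0.16 and 0.30) did not pass. Amn was called down at D6 (-2.89) and differed by 2.38 from D6 to D13, untested. In that step Ascl2, Krt18 and Thy1 also differed, by 2.15, 1.39 and 1.29. Lower at D13 than at D6 were 3 of 5 neural, 3 of 5 trophoblast, 1 of 4 endoderm and 2 of 3 fibroblast markers. The part of neural, trophoblast, endoderm or fibroblast cells in the D0 to D6 differences was not tested.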

How the data were processed

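RNA-seq was made from 2 replicates each of D0, D6 and D13 with a stranded mRNA kit, in paired-end reads of 100 bases. Per the labels and the study's methods, the authors mapped reads to mm10 with TopHat2 2.0.6 and RefSeq genes, counted them with HTSeq 0.6.1, quantified transposon families with Bowtie 1.0.0, combined both, applied TMM scaling and deposited log2 CPM from voom. A filter on low genes is not given in the sources used here; every gene had at least 348 reads over the 6 samples. No gene name in the files analysed here holds a capital G.

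Undoing the log2 scale gave whole reads, within 0.02, for 100% of gene values. Groups came from the labels. Limma 3.58.1 (R 4.3.3) was fitted to the deposited log2 values of 12626 genes and 302 families with a mean per day, all 6 samples, a mean-variance trend and Benjamini-Hochberg adjustment over all 12928 features. The script was tested on simulated data. Count models were not used, since the deposited unit is log2. Exonic lengths and positions came from GENCODE for GRCm38, the assembly of mm10. The genes, gene lists and tests were chosen with earlier results of these data known. Dll1 and Bhlhe41 had been planned for the D0 to D6 count and were left out of it, because their selection used the D6 samples. From each pathway, bHLH and clock list, called genes and up to 3 others with the largest D0 to D13 change were named. For Dll1 and Bhlhe41, the 3 genes of nearest profile were named, among those with at least 10 reads in every sample. The rule of called genes and largest changes was also set for the cell type markers, which are given as sums instead, with only some single markers named. Rbpj, Clock, Arntl and Neurog3 were added after their values were seen, and 1 gene that the rule names is not reported here. Alternatives were the 2 days compared alone, a replicate block, each sample left out, a filter at 10 reads in 2 samples, log2(CPM + 1), no trend, precision weights, median scaling, a 2-fold limit and adjustment over genes alone.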

Additional observations from a re-analysis of the deposited data

How the results depend on the processing

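The 14 tested changes of the 7 genes were recomputed under 14 alternatives, 196 values in all. Of these, 178 kept their direction and their side of the threshold, 7 no longer passed the test, 7 newly passed it and 4 changed sign without passing on either side: from D0 to D13, leaving out single samples gave -0.53 to 0.18 for Jag1 (0.18 without D13 replicate 1), -0.24 to 0.77 for Notch1 (-0.24 without D13 replicate 2) and -0.58 to 0.87 for Hes6 (-0.58 without D0 replicate 2 and -0.13 without D13 replicate 1). Those that no longer passed were Hes1 from D0 to D13 and Hey1 from D0 to D6, and those that newly passed were Notch1 and Hes6 from D0 to D6 and Hey1 from D0 to D13 without a mean-variance trend (adjusted p = 0.044). With a limit of 2-fold in place of 4-fold, 3 of the 7 genes were called from D0 to D6 and 2 from D0 to D13, 12 and 18 other Notch pathway genes, and 2 and 5 clock genes, as the looser limit allows. With log2(CPM + 1), which shrinks changes of low genes, 6 Notch pathway genes were called from D0 to D13 and 0 clock genes from D0 to D6, while Dll1 and Bhlhe41 differed by -2.36 and -1.36 from D0 to D6 and by 3.09 and 2.21 from D6 to D13. Leaving out single samples gave 1 to 3 clock genes past the adjusted p from D0 to D6, 1 to 3 called from D0 to D13, and 3 to 8 past the adjusted p from D0 to D13.

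Whether the replicate numbers pair the samples is not known. The replicate differences correlated over genes at -0.13 for D0 with D6, 0.33 for D6 with D13 and 0.14 for D0 with D13. Over the 302 transposon families they correlated at 0.54, 0.10 and 0.22 for the same pairs of days. With the replicate block, 5 of the 7 genes passed the adjusted p from D0 to D6 in place of 3, Notch1 and Hes6 being added. With 2 samples a day, a difference that did not pass may still exist, and at 10 to 14 reads the D6 level of Bhlhe41 rests on few molecules.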

Other observations

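Hes and Hey proteins act against bHLH activators, and Id proteins bind and disarm the partners of those activators. Of 12 activator and partner genes listed, 6 had values. Neurod1, a neuronal activator, had a mean log2 CPM of 3.46 ± 0.77 (SD, n = 2) at D0, 0.90 ± 0.68 at D6 and 0.78 ± 1.35 at D13. It was called down at D6 with -2.55 and at D13 with -2.68 (SE 0.66, limma adjusted p = 0.023 and 0.012). The D6 call was lost without D0 replicate 1 (limma adjusted p = 0.14) or D6 replicate 1 (0.084), and the D13 call without D0 replicate 1 (0.084) or D13 replicate 1 (0.082). Neurog3, an endocrine activator, fell by 1.71 at D6 (limma adjusted p = 0.023) and was at 0.33 above D0 by D13, with log2 CPM of 0.53 and 0.37, -1.23 and -1.30, and 0.57 and 0.98. Neurog3 did not pass without D0 replicate 1 (limma adjusted p = 0.060) or either D6 replicate (0.15 each). Its D6 to D13 difference was 2.05, and that of Ascl2 was 2.15, neither tested. Tcf12 and Tcf4, which encode partners of the activators, differed from D0 by 0.80 and -0.50 at D13 without passing.

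Of the 4 Id genes, 3 were called down in both comparisons, in which 3.9% and 6.01% of all genes were called down. The changes at D6 and D13 were -4.25 and -5.18 for Id1, -4.33 and -3.18 for Id2, and -4.36 and -7.52 for Id3. Without D0 replicate 1 the D13 change of Id2 was -2.08. Id4 differed by 0.07 and 0.03. D0 replicate 1 was above D0 replicate 2 for Id1 (7.35 and 4.56), Id2 (6.76 and 4.56) and Id3 (5.89 and 4.69), as it was for Hes6.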
